A study of Homo sapiens with 5 samples.

Results

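The regions described here are the RH18-only H3K27ac regions without MYF5. They are the entries of the RH18 H3K27ac peak list that overlap no RD H3K27ac region and have no RH18 MYF5 summit inside them or within 500 bp. They were chosen by these measured peak positions, so their lack of an RD counterpart and of a MYF5 summit is a description and not a finding. The rule took 22996 of 46408 RH18 regions (49.6%, 95% interval 49.1 to 50.01%, exact Clopper-Pearson). All such intervals cover counting error only.

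RD and RH18 are established human lines grown from rhabdomyosarcoma, a tumour of soft tissue whose cells resemble immature skeletal muscle. Both are of the fusion-negative form, which lacks the PAX-FOXO1 fusion gene of the other main form of the disease. Neither line is labelled with an added treatment or genetic change. Chromatin immunoprecipitation and sequencing (ChIP-seq) was used to map H3K27ac in both lines and MYF5 in RH18, with an input library of each line. Each of these 5 groups was 1 library, and the 2 input libraries were not analysed here. No spread between replicates could be measured, so no test was made, and a difference between the lines cannot be told apart from a difference between their libraries.

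H3K27ac, acetylation of histone H3 at lysine 27, is a mark of active promoters and enhancers, and the set of acetylated enhancers differs between cell types and cell lines more than the set of acetylated promoters does. MYF5 is a basic helix-loop-helix transcription factor that acts early in the muscle lineage and binds short DNA motifs called E-boxes. An acetylated region without a peak of one factor may be bound by others, and MYF5 was profiled in RH18 alone, so the rule says nothing about MYF5 in RD. Positions are in the build hg19. No genome or annotation of that build was used, so regions are given by their coordinates, without genes or sequences.

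The RH18-only regions without MYF5 were mostly weak and narrow entries of the RH18 list. Their median fold enrichment over the local background, as deposited by the authors, was 10.2, with the middle 80% between 6.03 and 23.8. The median was 14.8 in the 2505 RH18-only regions with MYF5, 19.3 in the 14638 regions shared with RD without MYF5, and 33.8 in the 6269 shared regions with MYF5. Median width followed the same order, at 369, 492, 616 and 924 bp. A wider region has more room to overlap an RD region or to hold a summit, so the rule itself bears on this order. Its part in the order was not tested. The number of sequenced tags at the summit, worked out from the authors' fold and p-value, had medians of 41, 63, 80 and 141. The regions without MYF5 or an RD counterpart therefore made up 49.6% of the entries but 11.4 Mb of the 32.5 Mb that the RH18 list covers. Low tag numbers were not particular to this class. The 15538 RD regions with neither an RH18 counterpart nor an RH18 MYF5 summit had a median of 58 recovered tags, against 85 over the whole RD list.

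The share of RH18-only regions without MYF5 fell at every step from the weakest to the strongest decile of the RH18 list. By fold it was 79.3% in the lowest decile (78.1 to 80.5%), 58.3% in the fifth and 9.33% in the highest (8.51 to 10.2%). By recovered tags it ran from 79.4 to 7.52%, and by width, on which the rule itself bears, from 75.4 to 16.4%. The share of RH18-only regions with MYF5 did not follow this course: over the deciles by fold it lay between 4.63 and 6.23%. Shared regions with MYF5 ran the other way, from 2.24% of the lowest to 48.2% of the highest decile by fold. The lists ended at different p-values, with the lowest −log10 p-value at 5.00 in RD and 7.09 in RH18. How many of the weak regions had RD signal below the end of the RD list was not tested.

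**Figure D1:**
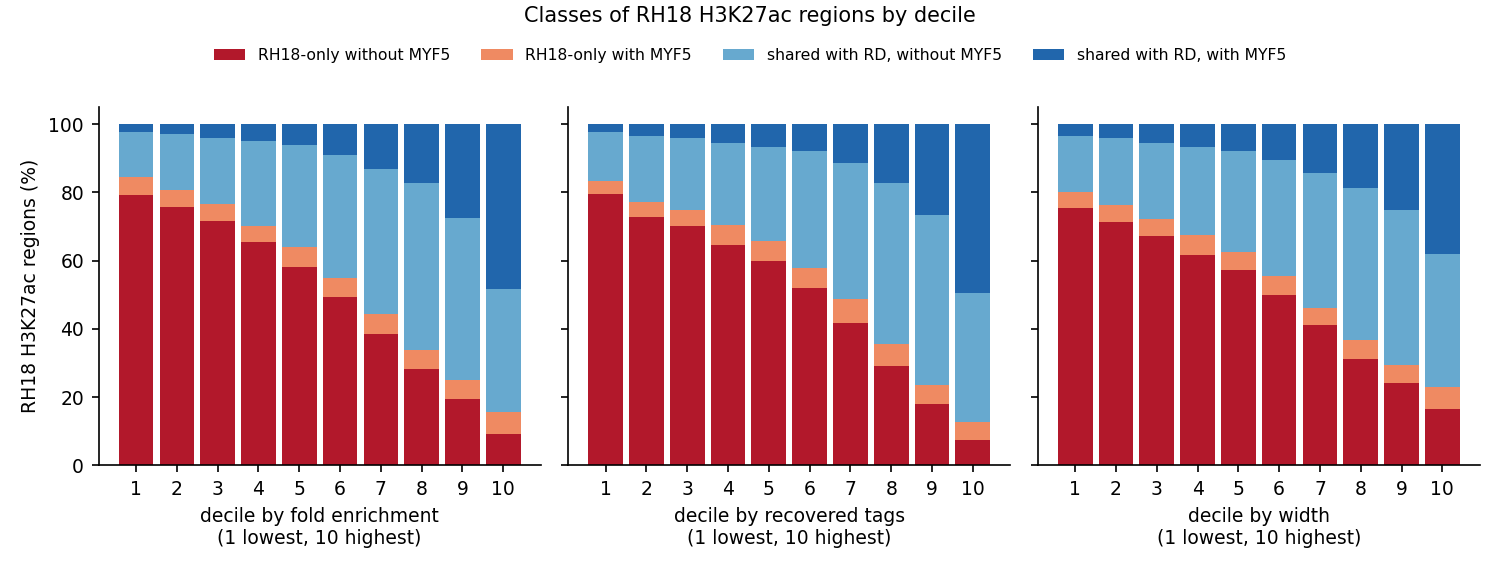
Share of RH18 H3K27ac regions (y axis, %) in each of 4 classes, for deciles of the whole RH18 list ranked by fold enrichment (left), by tags recovered at the summit (middle) and by width (right). The RH18-only class without MYF5 shrinks from 79.3% of the lowest decile by fold to 9.33% of the highest, while the shared class with MYF5 grows.

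A strong minority stood above this background of weak regions. Of the RH18-only regions without MYF5, 6731 (29.3%, 28.7 to 29.9%) had a fold above 13.98, the median of the whole RH18 list, and 433 (1.88%, 1.71 to 2.07%) were in its top decile, at 42.87 or more. The 10 of highest fold lay on 8 chromosomes, rested on 243 to 320 tags, and had folds from 87.6 to 107. Of these 10, 7 stood on the lowest local background of the list, and none lay within 5 kb of an RD region. A MYF5 summit lay within 10 kb of 5 of the 10.

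The highest was on chromosome 10 (644715 to 646700), with a fold of 107 and 297 tags. Its nearest RD region lay 24528 bp away and its nearest MYF5 summit 10269 bp away. It was 1 of 14 RH18 regions in a stretch, a run of RH18 regions joined across gaps so that separate stretches lay at least 12501 bp apart, and 8 of the 14 were RH18-only without MYF5. The second, on chromosome 19 (43437475 to 43438333), had a fold of 95.9 and 266 tags. The nearest RD region was 464812 bp away, while a MYF5 summit lay 752 bp from its edge, just past the 500 bp of the rule. The third, on chromosome 21 (47285234 to 47286893), had a fold of 94.1 and lay 7496 bp from an RD region and 8344 bp from a MYF5 summit.

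The next 7 differed widely in their surroundings. A 600 bp region on chromosome 1 (247906286 to 247906885, fold 93.3) was in a stretch of 5 regions that were all RH18-only without MYF5. It lay 409790 bp from an RD region but 2998 bp from a MYF5 summit. A region on chromosome 4 (1185256 to 1187457, fold 92.6) showed the reverse, with an RD region at 6260 bp and no MYF5 summit within 510362 bp. On chromosome 2 a region at 30524011 to 30525452 (fold 92.5) had a MYF5 summit at 7851 bp. On chromosome 17 there were 2, at 33759637 to 33760721 (fold 92.3) and at 8599606 to 8602904 (fold 88.1), each in a stretch of 4 regions with no other class. Both were far from MYF5, at 145082 and 260693 bp. The others were on chromosome 1 (230307517 to 230308590, fold 90.5) and on chromosome 11 (131942431 to 131943160, fold 87.6), the latter 311519 bp from an RD region and 7396 bp from a MYF5 summit.

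The widest were long acetylated blocks of lower fold than those 10. The widest of all spanned 9786 bp on chromosome 5 (178691180 to 178700965), with a fold of 60.2 and 279 tags, and was 88779 bp from an RD region and 104740 bp from a MYF5 summit. All 5 regions of its stretch were RH18-only without MYF5. The next spanned 5786 bp on chromosome 7 (73439071 to 73444856, fold 61.9) in a dense stretch of 49 regions, of which 40 were of this class. The other 3, on chromosomes 8 (23183847 to 23189608), 7 (100757467 to 100762979) and 5 (374030 to 379479), were 5762, 5513 and 5450 bp wide. Each lay within 5162 bp of a MYF5 summit, and each was in a stretch of 25 to 40 regions that held other classes too. The one at 100757467 stood on a local background 4.34 times the lowest of the list, and the widest on one 2.18 times the lowest.

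Distances to the nearest RD region showed how far the regions lay from acetylation listed in the other line. The median distance to the nearest RD region was 12280.5 bp. An RD region lay within 500 bp of 2561 of them (11.1%, 10.7 to 11.6%) and within 5 kb of 8152 (35.4%, 34.8 to 36.1%), while 416 (1.81%, 1.64 to 1.99%) lay more than 500 kb from any. Of the RH18-only regions with MYF5, 30.9% (29.1 to 32.7%) lay within 5 kb of an RD region, and their median distance was 17899 bp. At the shortest range the order turned: 15.6% of those with MYF5 lay within 500 bp of an RD region, more than the 11.1% without it. Neighbouring regions can have the same nearest RD region, so the intervals are too narrow for independent sites, and no test was made.

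Stronger RH18-only regions without MYF5 lay farther from RD regions. Cut into 5 equal groups by their own fold, 40.3% of the weakest group lay within 5 kb of an RD region and 29.4% of the strongest, and the median distance grew from 9098 to 17396 bp. The median width was 298 bp in the weakest group and 609 bp in the strongest, and the rule leaves out any region that overlaps an RD region. The part of width and of the rule in these distances was not tested. When the whole RH18 list was cut into quintiles by fold, so that classes could be set side by side at like strength, the regions with and without MYF5 had shares near RD whose intervals overlapped in each of the 5 quintiles. In the lowest these were 39.8% without and 38.4% with MYF5, and in the highest 27.3% (24.9 to 29.8%) and 21.7% (18.3 to 25.4%). The overall difference between 35.4 and 30.9% was larger than the differences at like fold in quintiles 1 to 4.

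**Figure D2:**
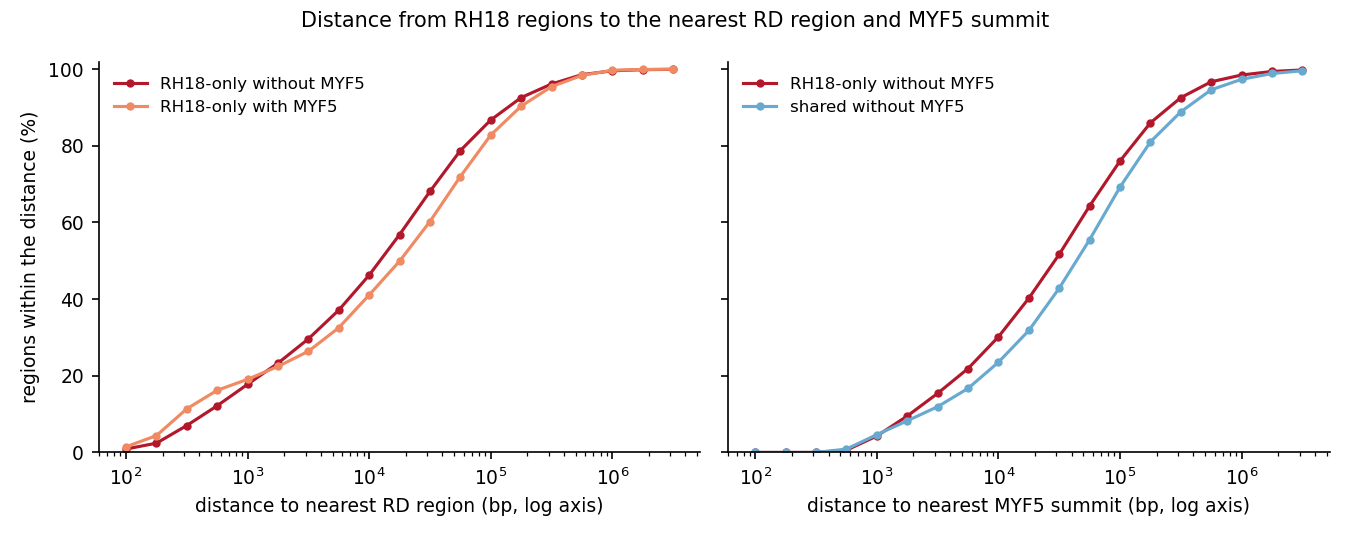
Cumulative share of regions (y axis, %) within a given distance in bp (log x axis) of the nearest RD H3K27ac region (left) and the nearest RH18 MYF5 summit (right). RH18-only regions without MYF5 are set beside RH18-only regions with MYF5 on the left and shared regions without MYF5 on the right. Within 10 kb of a MYF5 summit the shares are 30.2 and 23.5%. On the right, regions with a summit within 500 bp are left out of both classes.

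Although the rule kept MYF5 summits out of a 500 bp margin, many of the regions had one in their neighbourhood. The median distance to the nearest MYF5 summit was 29156.5 bp, and 6939 regions (30.2%, 29.6 to 30.8%) had one within 10 kb. Shared regions without MYF5, which are those that the same margin left, had one within 10 kb in 23.5% (22.9 to 24.2%), with a median distance of 44214.5 bp. Among the 15538 RD regions with neither an RH18 counterpart nor an RH18 MYF5 summit, the share was 23.3% (22.6 to 24.0%). The nearest summit lay more than 500 kb away for 929 of the RH18-only regions (4.04%), for 6.40% of the shared and for 10.05% of the RD-only regions. The margin had taken out 6269 shared regions and left 14638, and had taken out 2505 RH18-only regions and left 22996. These shares therefore do not compare all shared with all RH18-only regions.

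At like fold, and among the regions that the 500 bp margin left, the nearness to MYF5 differed most in strong regions. In the lowest quintile of the RH18 list by fold, 32.5% of RH18-only and 29.4% of shared regions without MYF5 had a summit within 10 kb, and in the second 29.1 and 27.7%, with intervals that overlapped in both. In quintile 4 the shares were 29.1% (27.5 to 30.7%) and 20.5% (19.3 to 21.8%), and in the highest 33.9% (31.4 to 36.5%) and 22.2% (20.9 to 23.5%). Intervals did not overlap from quintile 3 upward. Median distances in the highest quintile were 23189 bp for RH18-only and 46528 bp for shared regions. Regions near each other can share 1 summit, so these intervals are too narrow for independent sites. The margin had also taken more shared than RH18-only regions out of the strong end. In the highest decile by fold, 48.2% of regions were shared with MYF5 and 36.2% shared without. RH18-only regions made up 6.23% with and 9.33% without. These shares therefore do not show whether RH18-only or shared regions as a whole lay nearer to MYF5.

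**Figure D3:**
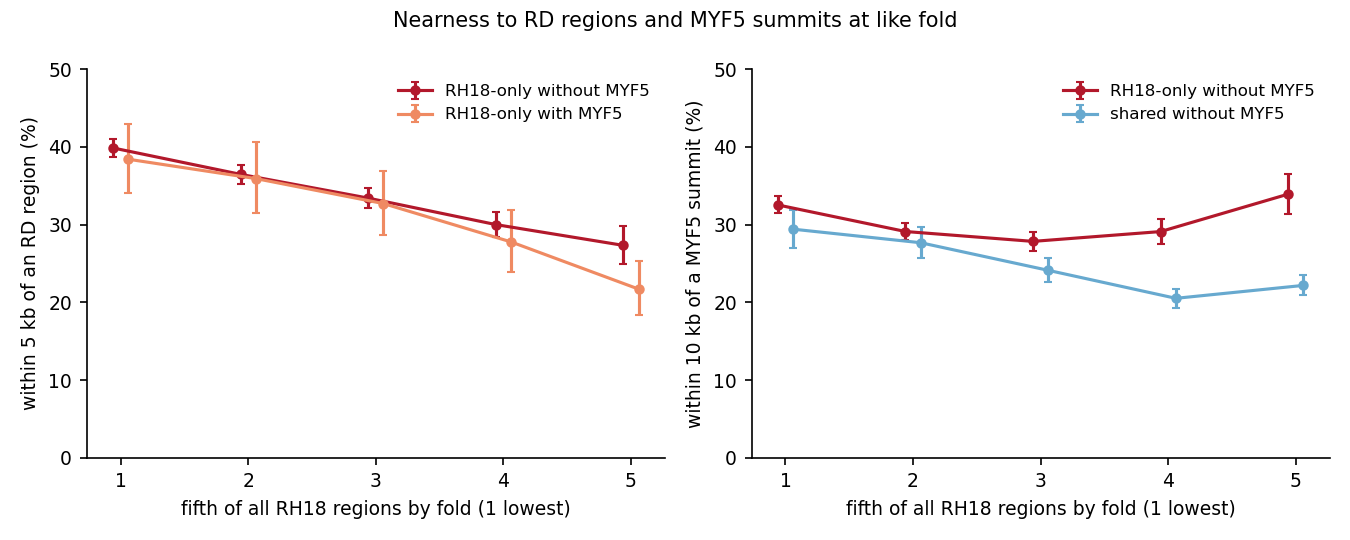
Share of regions (y axis, %) within 5 kb of an RD region (left) and within 10 kb of a MYF5 summit (right) for quintiles of the whole RH18 list by fold (x axis), with exact 95% intervals as bars. On the right the RH18-only regions without MYF5 separate from shared regions without MYF5 toward high fold, to 33.9 and 22.2% in the highest quintile. Regions with a summit within 500 bp are left out of both, and more of these were shared.

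The regions nearest to the limits of the rule are given as a description. The 3 regions just inside the MYF5 margin had a summit at 501, 502 and 502 bp and folds of 32.7, 6.96 and 7.01, on chromosomes 11 (67385844 to 67387083), 1 (180124043 to 180124909) and 14 (62032137 to 62032531). The 3 just outside it had a summit at 500 bp and folds of 5.75, 8.36 and 10.9, on chromosomes 10 (112326140 to 112326493) and 2 (101596008 to 101596349 and 237519056 to 237519337). At the RD limit, the 3 nearest regions inside the rule lay 1, 2 and 3 bp from an RD region, with folds of 8.69, 7.93 and 24.8, on chromosomes 1 (156076841 to 156077236), 12 (50477979 to 50478512) and 7 (37148921 to 37149320). The 3 just outside overlapped one by 1, 3 and 4 bp, with folds of 9.49, 8.39 and 16.2, on chromosomes 9 (90215279 to 90215586), 17 (43127407 to 43127776) and 11 (123064568 to 123065012).

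Along the chromosome, regions of this class most often had each other as neighbours. The nearest other RH18 region was also RH18-only without MYF5 for 65.9% of them (65.3 to 66.6%), beside their 49.6% share of the list. Each other class also had its own kind as nearest neighbour more often than its share of the list: 34.3% against 5.40% for RH18-only regions with MYF5, 54.6% against 31.5% for shared regions without MYF5 and 38.4% against 13.5% for shared regions with MYF5. The same MYF5 summit or RD region can put adjacent RH18 regions in the same class, and the part of this in these shares was not tested. For the RH18-only regions without MYF5 the nearest region was a shared region without MYF5 for 20.7%, a shared region with MYF5 for 8.39% and an RH18-only region with MYF5 for 4.94%. The median gap to that neighbour was 661 bp, against 497 bp for shared regions without MYF5 and 434 bp for RH18-only regions with MYF5. Of the regions, 87.9% (87.5 to 88.3%) had their summit in the middle 50% of their width, against 81.7% (80.8 to 82.7%) of the wider shared regions with MYF5. The share was 84.5% of RH18-only regions with MYF5 and 84.8% of shared regions without MYF5. The part of width in these shares was not tested.

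Joined into such stretches, the regions fell into 4 settings. In 11658 cases (50.7%, 50.05 to 51.3%) the stretch also held a region shared with RD. Any overlap of a single region with RD was enough for this setting, and RD signal below the end of the RD list was not examined. A further 5866 (25.5%, 24.9 to 26.1%) were in 2165 stretches made only of RH18-only regions without MYF5, 3968 (17.3%, 16.8 to 17.7%) were alone, and 1504 (6.54%, 6.22 to 6.87%) were beside RH18-only regions with MYF5 and no shared region. Lone regions were less common than among shared regions without MYF5, of which 22.9% (22.2 to 23.5%) were alone, and about as common as among RH18-only regions with MYF5 (16.4%, 15.0 to 17.9%), whose interval overlapped. The median fold differed little between the settings, from 9.76 beside shared regions to 11.2 both in stretches of their own class and beside RH18-only regions with MYF5.

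MYF5 was present in many of those stretches, outside the margin. Of the regions in a stretch with a shared region, 60.4% (59.5 to 61.3%) had a MYF5 summit somewhere in the stretch. Of those in stretches of their own class with 2 or more regions, 3.92% (3.44 to 4.45%) had a summit in the gaps between regions. A summit inside or within 500 bp of any region would have put that stretch in another setting. Stretches with a shared region had no such limit, so the definition of the settings bears on both shares and no conclusion is drawn from their contrast. There were 805 stretches of 3 or more such regions and no other class, with 3146 regions in all and at most 16 in one, and 41 of the 805 held a MYF5 summit in a gap and 41 an RD region.

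The 5 longest of these stretches had median folds between 9.39 and 13.9, below the median of the whole RH18 list. The longest spanned 55.4 kb on chromosome 2 (39696964 to 39752345), with 9 regions, a median fold of 9.89 and a highest fold of 34.3. It had an RD region in a gap, 490 bp from the nearest of the 9, and no MYF5 summit within 43668 bp. One of 40.3 kb on chromosome 3 (123398654 to 123438942) held 11 regions with folds up to 39.9, with an RD region 36919 bp away and a MYF5 summit 1622 bp from its nearest region. On chromosome 7 (6311245 to 6347708), 12 regions with a median fold of 13.9 lay 40315 bp from an RD region and 131300 bp from MYF5, the most remote from MYF5 of the 5. The stretches on chromosomes 17 (1458171 to 1494202) and 22 (19973943 to 20009553) held 6 regions each, with highest folds of 17.8 and 13.7.

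Some strong regions lay in parts of the genome with no listed RD region for more than 1 Mb. RD signal below the end of the RD list was not examined there. Among the top decile of RH18-only regions without MYF5 by fold, the 5 farthest from RD lay 1.52 to 1.98 Mb from any RD region. The farthest, on chromosome 2 (79206530 to 79206887), had a fold of 39.4 and 109 tags, and the nearest MYF5 summit was 744245 bp away. It was 1 of 2 regions in its stretch, both of this class, and the other 4 were alone in theirs. A region on chromosome 21 (24338682 to 24339067) had a fold of 31.5. On chromosome 3 there were 2, at 174158477 to 174159516 (fold 61.1, 169 tags) and 174047419 to 174047806 (fold 34.3, 131 tags). The second of these had a MYF5 summit 508 bp away and the first had none within 98294 bp. The fifth, on chromosome 5 (104975014 to 104975792), had a fold of 44.7 and no MYF5 summit within 313025 bp.

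The regions were spread over chromosomes 1 to 22 and X, with shares from 43.9 to 63.4%. The share of RH18 regions that were RH18-only without MYF5 was highest on chromosomes 21 (63.4%, 59.8 to 66.8%), 13 (59.5%, 56.4 to 62.5%) and 22 (59.0%, 56.5 to 61.5%). It was lowest on chromosomes 12 (43.9%, 41.8 to 45.9%), 9 (44.2%, 41.8 to 46.5%) and 1 (44.4%, 42.9 to 45.9%). On the 3 chromosomes of highest share the RD list held 479, 697 and 917 regions, fewer than the 745, 1007 and 1484 of the RH18 list. On the 3 of lowest share it held 2524, 2001 and 4545, against 2279, 1757 and 4568 in RH18. The rule used both lists, and the copy number of these chromosomes in the lines was not analysed here. Neighbouring regions often share a class, so these intervals are too narrow for independent sites, and no test was made between chromosomes.

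**Figure D4:**
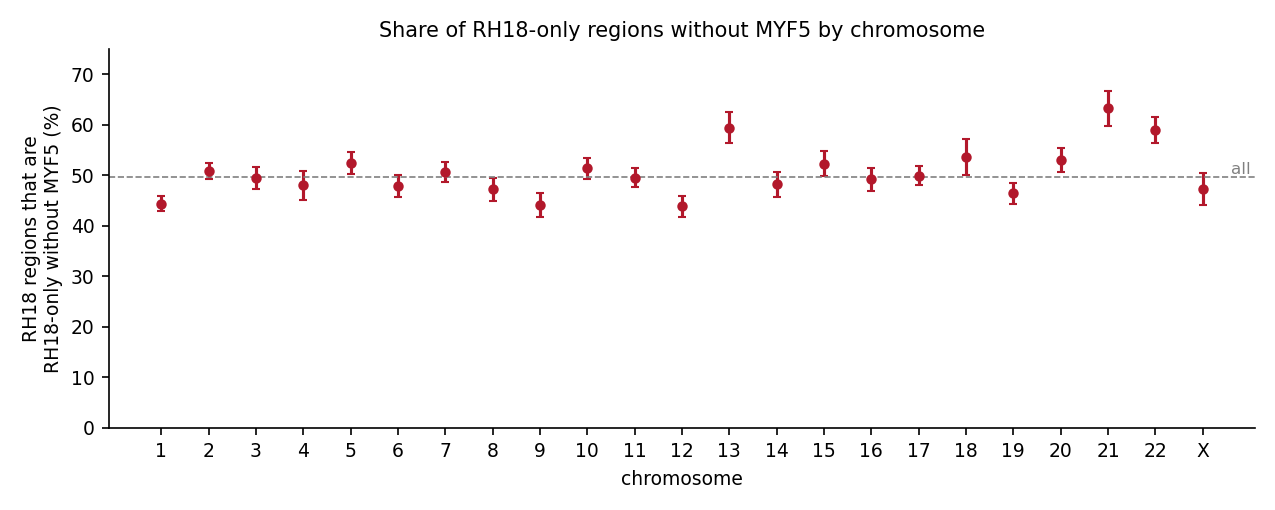
Share of RH18 H3K27ac regions that were RH18-only without MYF5 (y axis, %) on each chromosome (x axis), with exact 95% intervals as bars and the share over all chromosomes as a dashed line. Chromosomes 21, 13 and 22 are highest, at 63.4, 59.5 and 59.0%.

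Counts of the regions per megabase were uneven. They fell in 2119 bins of 1 Mb with a median of 7 per bin, and 34 bins held 50 or more. A high count did not always mean a high share of the RH18 regions in the bin. Among the 34, the share ran from 43.5% (50 of 115, chromosome 17 from 79000001) to 92.9%, beside 49.6% over the list. The bin with most, on chromosome 19 from 43000001 to 44000000, held 112 RH18 regions, of which 104 were RH18-only without MYF5 and 8 were RH18-only with MYF5. It held no listed RD region. Background was recovered only at listed regions, so no RD background can be given for this bin. RD signal below the end of the RD list and the copy number of the bin were not examined. The interval between the flanking RD regions ran from 42972664 to 44036716, or 1064 kb, and 108 of the 117 RH18 regions in it were of this class. The 104 regions had folds from 4.11 to 95.9 with a median of 15.7, above the 10.2 of the class as a whole, and 17 to 266 tags. They formed parts of 14 stretches and covered 68.4 kb. Their median local background was 1.16 times the lowest of the list. The bin held 7 MYF5 summits. After the region at 43437475 described above, the strongest of the 104 were at 43686969 to 43687545 (fold 60.1, 160985 bp from MYF5) and 43526698 to 43527526 (fold 56.6, 714 bp from MYF5).

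The other 4 densest bins differed from it in holding listed regions of both lines. On chromosome 5 from 172000001 to 173000000, 94 of 146 RH18 regions were of the class, among 43 shared regions and 51 RD regions, with 25 MYF5 summits. Its 3 strongest of the class were at 172377525 to 172379190 (fold 78.2), 172329975 to 172330982 (fold 73.5) and 172328578 to 172329851 (fold 65.7), at 7290, 4479 and 3082 bp from an RD region. On chromosome 11 from 2000001 to 3000000, 69 of 97 were of the class. Its strongest of the class, at 2553889 to 2556052 (fold 69.1, 248 tags) and 2326150 to 2328029 (fold 57.8), lay 131179 and 75789 bp from an RD region and 110986 and 90135 bp from MYF5. The first megabase of chromosome 7 had 69 of 100, and these had the lowest median fold of the 5 bins, 8.52, with none in the top decile of the list. Its local background had a median of 1.99 times the lowest of the list in RH18 and 5.98 times in RD.

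The bin on chromosome 10 from 44000001 to 45000000 had the next highest share of the class among the 5 after the one on chromosome 19. Of its 79 RH18 regions, 68 (86.1%, 76.5 to 92.8%) were RH18-only without MYF5, and it held 12 RD regions and 9 MYF5 summits. Its strongest region of the class, at 44401897 to 44402443 (fold 69.7, 193 tags), lay 626 bp from an RD region and 637 bp from a MYF5 summit. The next of the class, at 44425515 to 44426747 (fold 62.5, 173 tags) and 44405739 to 44406581 (fold 57.5, 206 tags), lay 24255 and 4479 bp from a summit. The median local background of the 68 was the lowest of the list. A bin on chromosome 5 from 149000001 tied with it, with 68 of 89 RH18 regions, and is not described further.

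**Figure D5:**
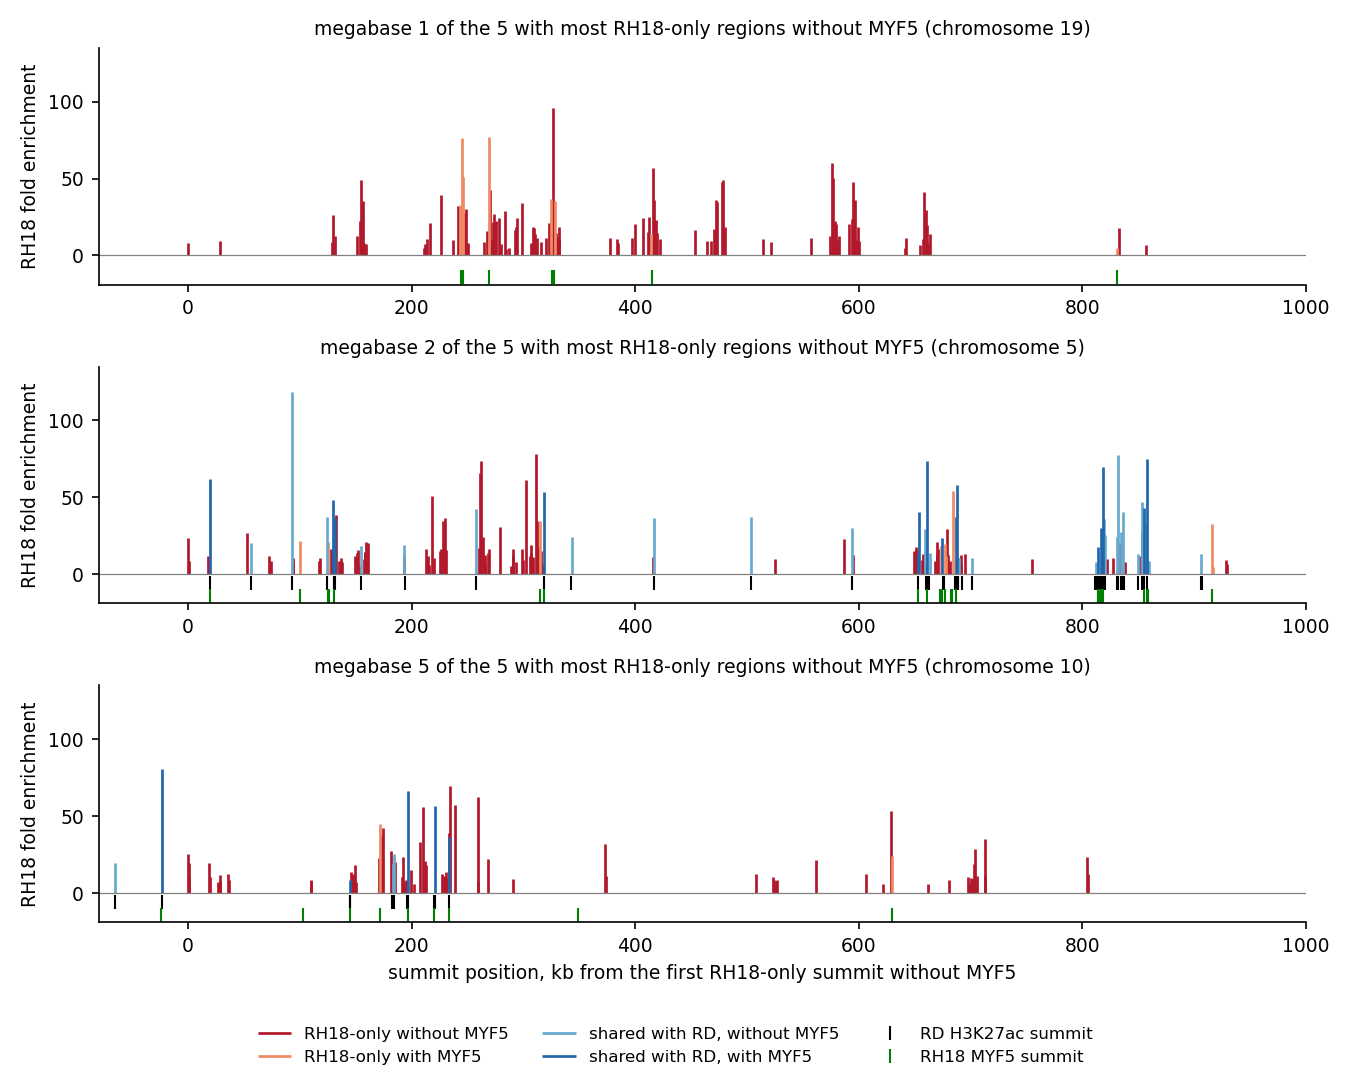
Fold enrichment of every RH18 H3K27ac region (y axis, vertical lines coloured by class) against the position of its summit in kb from the first RH18-only summit without MYF5, in 3 of the 5 megabases with most such regions (ranks 1, 2 and 5). Ticks under the axis mark RD H3K27ac summits (black) and RH18 MYF5 summits (green); the top panel, chromosome 19, has 104 RH18-only regions without MYF5 and no RD tick.

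Some of the regions stood on a raised local background. These were 2499 (10.9%, 10.5 to 11.3%), with a background at least 4 times the lowest of the list, against 13.3% of RH18-only regions with MYF5, 9.07% of shared regions without and 8.28% of shared regions with MYF5. By their own fold, this share was 32.1% in the weakest of 5 equal groups and 2.48% in the strongest; the fold is a ratio over this same background, so a raised background lowers it by construction. The most raised bin with 10 or more was on chromosome 12 from 69000001, where 10 of 23 RH18 regions were of the class. Those 10 had a median background 55.0 times the lowest and a median fold of 2.55, while the RD background there was 3.65 times its lowest. On the same chromosome, 58 of 119 RH18 regions (48.7%) in the bin from 48000001 were of the class, beside 49.6% of the list. Their median background was 8.96 times the lowest, with a median fold of 4.35. The part of the raised background in these values was not tested. Without regions of raised background, 49.1% of the RH18 list remained RH18-only without MYF5.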

How the data were processed

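Peak lists of 3 ChIP-seq libraries (RD H3K27ac, RH18 H3K27ac, RH18 MYF5) were used, 1 per library, in hg19. The submitters' processing notes name BWA 0.7.10 and MACS2 2.1.0; thresholds, controls and total reads are not given in the sources used here. Each deposited peak has a fold (a ratio over local background), −log10 p- and q-values, a score (not used) and a summit, all the authors'. Regions overlapping by 1 bp were called shared. Tags and background at summits were recovered by inverting the MACS2 formulas, with the solution nearest to whole tags taken where more than 1 existed (14.7% of RH18, 56.7% of RD and 32.0% of MYF5 peaks); RH18 summits had a median of 57 tags. A tag was worth 0.832 pileup units in RH18 and 0.273 in RD, so folds were compared only within RH18. The recovery of tags was tested on simulated peaks made with the same formulas and a tag worth near that of RH18. The lower tag worths of RD and MYF5 were not simulated. The class rule was tested on RD regions and summits placed at known RH18 regions. Named regions were the 10 of highest fold, the 5 widest, the 5 of the top decile farthest from RD, the 5 longest stretches, the 5 densest megabases and 3 on each side of each limit. Members and lists were chosen with earlier results of these data known. Software was Python 3.11.15 with scipy 1.17.1, pandas 2.3.3, numpy 2.4.6 and, for plots, matplotlib 3.10.9.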

Additional observations from a re-analysis of the deposited data

How the results depend on the processing

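Of 71 values recomputed under alternatives, 35 stayed within the counting interval of the reported value and 36 left it; none was tested. Shares below are of RH18 regions that were RH18-only without MYF5 (49.6% as reported), then of those within 5 kb of RD (35.4%), within 10 kb of MYF5 (30.2%) and alone (17.3%), where they moved. Counting RD regions within 500 bp as overlap gave 44.0, 27.4, 29.2 and 18.9%. Asking for the RH18 summit inside an RD region gave 51.7 and 38.1%, with a median width of 375 bp. With MYF5 summits inside the region only, the share was 52.6%, and 34.2% lay within 10 kb of MYF5; with a 2000 bp margin the 4 shares were 44.3, 31.9, 21.9 and 18.8%. A −log10 q-value of at least 10 in RH18 gave 48.1%, 18.3% alone, a median fold of 10.7 and a width of 379 bp, and one of at least 5 in RD gave 50.9%. Without raised background 29.5% lay within 10 kb of MYF5, 19.3% were alone and the median fold was 10.7. Joining within 5000 or 25000 bp left 25.9 or 11.1% alone. Leaving out chromosome 12 moved no value outside its interval.

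The strength of the list entries moved the share most. In 2 settings chosen after seeing the data, RH18 regions with at least the median number of tags gave 29.7, 33.4, 31.4 and 29.4%, with a median fold of 18.8 and a width of 527 bp. The 10000 RH18 regions with most tags gave 13.5, 30.0, 35.3 and 44.8%, a median fold of 31.9, a width of 774 bp and 3.86% of the regions on chromosome 12 (4.35% as reported). Fewer regions in the list leave more of them alone by construction. Shares at gene starts, gene lists and sequence content were planned only for an annotation or genome of the build hg19 and were not run. No paired analysis was possible because each group was 1 library.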
